A study of Mus musculus with 12 samples.

Results

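Of the 12 RNA sequencing libraries made from mouse neurosphere cultures, 4 had a normalised read count above 50 for Gfap, the gene of the glial fibrillary acidic protein, and are described here as the high-Gfap libraries. The other 8 libraries, at 50 or less, formed the low-Gfap group. The 4 high-Gfap libraries came from only 2 of the 6 cultures, female culture 2 and female culture 3, each represented once with pravastatin and once with vehicle. The low-Gfap group held female culture 1 and male cultures 1, 2 and 3, also with both treatments. Every culture was grown from the dissected cortex of a single C57BL/6 embryo at embryonic day 14.5 and kept as free-floating neurospheres in medium with a proliferation supplement until passage 3. At that point the neural stem-progenitor cells (NSPCs) were exposed for 24 hours to 10 µM pravastatin, a statin that inhibits HMG-CoA reductase, or to the same volume of vehicle. A neurosphere mixes stem cells, progenitors and cells that have begun to differentiate, and no cells were sorted.

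Cortical NSPCs divide for as long as growth factors keep the cyclin D genes on, and after neurogenesis the same cells turn to making glia. Astrocytes are known for the filament protein of Gfap, the water channel of Aqp4 and the lipid carrier of Apoe. Oligodendrocyte precursors carry Pdgfra and Sox10, pass through a stage marked by Gpr17, and then switch on Myrf and myelin genes such as Mbp as they leave the cell cycle. In bulk libraries such as these, fewer cells of a type and less RNA per cell cannot be told apart.

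Because the groups were chosen on measured Gfap, and because genes that vary with Gfap follow from that choice, the comparison of the groups is a description with no test. A gene was counted as parting the groups where all 4 high-Gfap libraries lay above, or all below, all 8 low-Gfap libraries and the difference was at least 2-fold. By that count 433 of 15521 genes stood higher in the high-Gfap libraries (2.79%) and 205 stood lower (1.32%), and the median difference over all genes was -0.002 on the log2 scale. With no fold required, 2264 genes lay wholly above (14.6%) and 1661 wholly below (10.7%). The filter kept genes with a value above 1 in at least 4 libraries. A gene could therefore enter through the 4 high-Gfap libraries alone, and such a gene is higher by that choice. With 6 libraries required, 394 genes stood higher and 199 lower. Log2 differences are high-Gfap minus low-Gfap on log2(value + 0.5), with treatment held constant, and the error given is the SE over culture means (2 cultures against 4). Values are normalised read counts scaled by the authors, listed for the high-Gfap libraries in the order culture 2 with pravastatin, culture 2 with vehicle, culture 3 with pravastatin and culture 3 with vehicle.

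The high-Gfap libraries stood apart across the whole transcriptome before any gene group was considered. The leading principal component took 57.4% of the variance and ran from 16.8 to 57.7 in the high-Gfap libraries, against -24.7 to -17.2 in the low-Gfap libraries. Depth did not follow the groups, at 15293633 to 17482339 reads in the high-Gfap libraries and 13353619 to 18422845 over all 12 libraries. The share of mitochondrial reads was 3.40 to 4.47% in the high-Gfap libraries, against 7.77% in male culture 1 with pravastatin and 2.68 to 3.77% in the other 7 low-Gfap libraries. Small noncoding RNA and rRNA took 8.40 to 10.4% in the high-Gfap libraries, against 11.2% in that male library and 6.32 to 7.61% in the other 7. The part of these shares in the differences was not tested, and without that male library 453 genes stood higher and 222 lower. Sex was partly aligned with the groups, since no male culture was high in Gfap. The Y-linked gene Ddx3y had the most negative difference of all genes, and it was near 0 in female culture 1 as well (0.384 with pravastatin and 0.112 with vehicle). It was 94.6 to 120 in the male cultures. Its place among the 205 lower genes rests on that 0.112 against at most 0.0601 in the high-Gfap libraries, values that cannot be told from 0. The most positive difference of all tested genes, 7.14, was also in the list of 5 genes that check sex. The groups overlapped for that gene, so it was not counted as higher. Among the female cultures alone, 2 against 1, the counts were 599 higher and 314 lower genes. With fewer low-Gfap libraries a lack of overlap is easier to reach, so these counts are not comparable with those over all libraries. The part of sex in the differences was not tested.

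Gfap itself was 507, 408, 69.3 and 179 in the high-Gfap libraries, against a lowest of 3.96, a median of 5.45 and a highest of 8.31 in the low-Gfap libraries. The nearest values on either side of the threshold were therefore 69.3 and 8.31, and no library lay between them. The difference was 5.22 ± 1.03 on the log2 scale, or 37.2-fold, for a gene on chromosome 11 (chr11:102887336-102900912, minus strand, GRCm38). Aqp4, the astrocyte water channel, was 188, 198, 55.3 and 106 in the high-Gfap libraries, against 7.55, 20.1 and 27.0 (lowest, median, highest) in the low-Gfap libraries. Its difference was 2.80 ± 0.76, and culture 3 with pravastatin was the lowest of the high-Gfap libraries for Aqp4 as for Gfap. Apoe, which carries cholesterol between glia and neurons, was 2290.2, 3730.1, 715 and 2136 in the high-Gfap libraries, against 203, 285 and 453 in the low-Gfap libraries (2.69 ± 0.63). Mbp, a structural protein of myelin, was 91.2, 76.3, 24.7 and 29.0 in the high-Gfap libraries, against 0.895, 1.86 and 2.66 in the low-Gfap libraries (4.38 ± 0.83). Ccnd1, which encodes cyclin D1 and drives entry into the cell cycle, went the other way. It was 392, 217, 974 and 474 in the high-Gfap libraries, against 1218, 1291 and 1431 in the low-Gfap libraries (-1.54 ± 0.61). For all 5 genes the groups did not overlap, and the culture 2 libraries lay farther from the low-Gfap group than the culture 3 libraries.

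**Figure D1:**
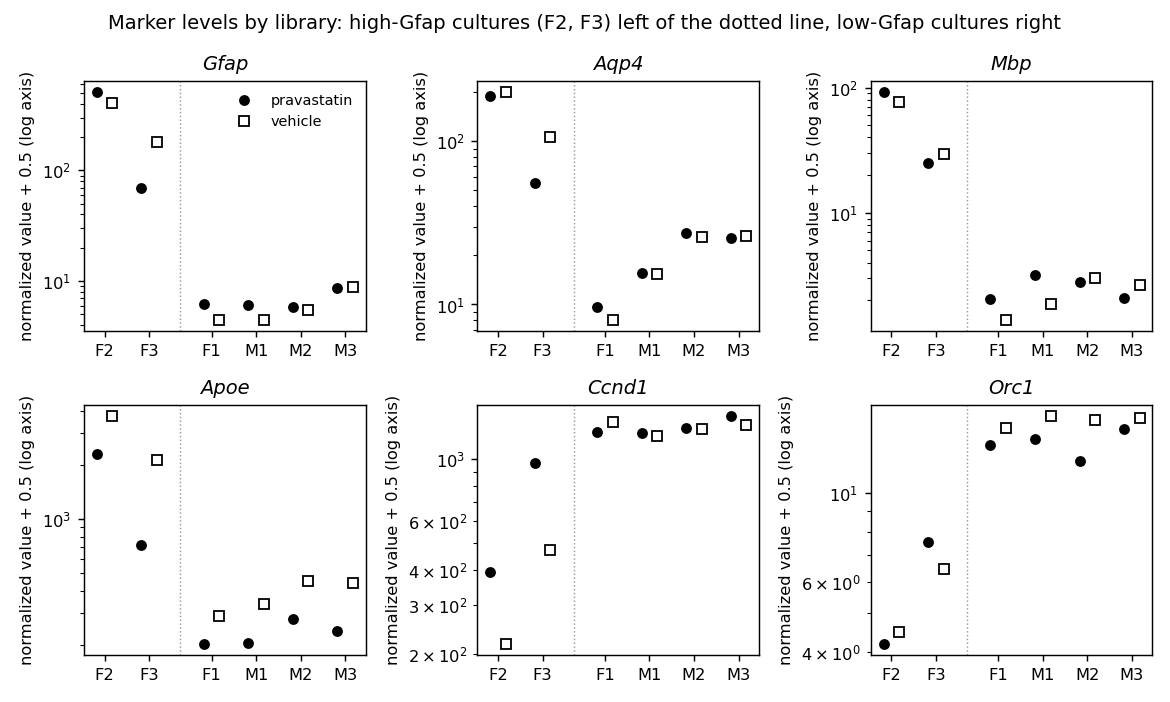
Normalised read count plus 0.5 (log axis) of Gfap, Aqp4, Mbp, Apoe, Ccnd1 and Orc1 in each of the 12 libraries, with the high-Gfap cultures (F2, F3) left of the low-Gfap cultures (F1, M1, M2, M3; F female, M male), filled circles for pravastatin and open squares for vehicle. The 4 high-Gfap libraries lie above the other 8 for the first 4 genes and below them for Ccnd1 and Orc1.

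The name glia-like fitted these libraries only in part. Of 37 astrocyte genes tested, 24 lay wholly above the low-Gfap group and none wholly below, and of 27 oligodendrocyte and myelin genes 18 lay wholly above and 1 below. The 16 neuronal genes lay on both sides of 0, with 3 counted as higher, 1 as lower and a median of 0.03. The division genes were lower but far from absent, and the 23 stem cell and radial glia genes had a median difference of 0.08. Markers of other cell types were few. None of 13 microglia genes was in the table. The 4 endothelial genes tested summed to 4.53 to 5.25 in the high-Gfap libraries, against 6.20 to 8.59 in the low-Gfap libraries, and the 4 mural and fibroblast genes to 14.1 to 21.7, against 15.7 to 35.7. The part that neuronal, endothelial or mural cells had in the differences was not tested. The groups are therefore called by their Gfap level here.

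The oligodendrocyte and myelin genes had the highest median difference of the lists compared, with 16 of 27 tested genes counted as higher, none as lower, and a median of 1.37. Some of these genes, such as Enpp6 and Mag, passed the filter through the high-Gfap libraries alone. Enpp6, an enzyme of newly formed oligodendrocytes, was 44.6, 43.2, 11.4 and 15.3 in the high-Gfap libraries, against 0, 0.265 and 0.651 (lowest, median, highest) in the low-Gfap libraries, where 3 reads correspond to 0.157 to 0.228. Among genes with no overlap between the groups and a mean value above 5, its difference of 4.99 ± 0.87 was exceeded only by that of Gfap. Bcas1, a marker of early myelinating cells, was 189, 166, 72.99 and 85.7 in the high-Gfap libraries, against 12.9, 15.6 and 21.2 in the low-Gfap libraries (2.86 ± 0.59). Myrf, the transcription factor that turns on myelin genes, was 23.5, 22.3, 8.92 and 10.4 in the high-Gfap libraries, against 1.15, 1.78 and 4.94 in the low-Gfap libraries (2.64 ± 0.63). Cnp, an enzyme gene switched on early in the lineage, was 457, 461, 226 and 331 in the high-Gfap libraries, against 86.9, 114 and 138 in the low-Gfap libraries, where it was already well expressed (1.63 ± 0.39).

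Late myelin genes were hardly present in either group. Mag, an adhesion protein of the inner myelin layer, was 4.09, 2.37, 1.20 and 1.38 in the high-Gfap libraries and 0, 0.0536 and 0.118 in the low-Gfap libraries, which is within what 3 reads give. Mog, Mobp, Opalin and Mal, genes of compact or mature myelin, did not pass the minimum of a value above 1 in 4 libraries. Genes for enzymes of myelin lipids were counted as higher as well. Ugt8a, which makes galactosylceramide, differed by 1.74 ± 0.47, Fa2h by 2.26 ± 0.51 and Gal3st1 by 2.03 ± 0.45. Car2, a carbonic anhydrase also made outside the lineage, was the single list member wholly below, by -0.70 ± 0.17.

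Genes of oligodendrocyte precursors lay on both sides of 0. Of 19 tested, 6 were counted as higher and none as lower, with a median of 0.45. Gpr17, a receptor of committed precursors that are about to differentiate, was 335, 322, 133 and 201 in the high-Gfap libraries, against 10.2, 21.7 and 46.9 in the low-Gfap libraries (3.38 ± 0.61). Sox10, which keeps the lineage committed, was 97.5, 90.2, 56.3 and 70.99 in the high-Gfap libraries, against 7.10, 11.2 and 19.3 in the low-Gfap libraries (2.68 ± 0.34). Pdgfra, the receptor through which precursors are kept dividing, was 195, 189, 134 and 162 in the high-Gfap libraries, against 42.1, 72.2 and 87.0 in the low-Gfap libraries (1.34 ± 0.25). The transcription factors that begin the lineage did not share this pattern. Olig1 was 806, 746, 846 and 755 in the high-Gfap libraries, against 774, 874 and 959 in the low-Gfap libraries, so the groups overlapped. Olig2 was 377, 325, 362 and 322 in the high-Gfap libraries, against 400.2, 449 and 498 in the low-Gfap libraries, wholly below by -0.37 ± 0.04. Cspg4, the NG2 proteoglycan of dividing precursors, overlapped with a difference of -0.60 ± 0.28.

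Sequences upstream of 2 of these genes are shown because Sox10 belongs to the SOX family, whose members bind the core ACAAAG. RefSeq promoter windows (GRCm38.p6, 250 bases before to 50 after the annotated start) were matched for 17 of the 27 oligodendrocyte and myelin genes, and the core or its reverse complement CTTTGT was found in 4 of them (23.5%), in Mag, Cnp, Tspan2 and Plekhb1. It was found in 21% of all 27025 genes with a window and in 16.1% of the 10053 tested genes with one, so its frequency in the list was not far from that of other genes. Capitals mark the match in the windows of Cnp (chr11:100574689-100574988, plus strand) and Mag (chr7:30914814-30915113, minus strand). The match begins 167 bases before the start in Cnp and 126 bases before it in Mag. A match describes letters and is not a binding site.
Cnp: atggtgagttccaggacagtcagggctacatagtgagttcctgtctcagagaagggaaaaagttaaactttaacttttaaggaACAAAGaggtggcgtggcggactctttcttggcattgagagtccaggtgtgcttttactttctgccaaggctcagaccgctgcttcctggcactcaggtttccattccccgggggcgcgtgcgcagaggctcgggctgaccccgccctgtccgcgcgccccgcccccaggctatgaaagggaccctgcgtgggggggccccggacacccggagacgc
Mag: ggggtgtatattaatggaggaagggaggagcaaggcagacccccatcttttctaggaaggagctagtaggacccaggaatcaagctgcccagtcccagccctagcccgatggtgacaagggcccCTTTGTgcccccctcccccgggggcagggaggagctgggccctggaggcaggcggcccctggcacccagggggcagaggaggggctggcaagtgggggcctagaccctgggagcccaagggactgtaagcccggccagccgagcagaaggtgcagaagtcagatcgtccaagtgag

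Astrocyte genes stood higher in a graded way. Of the 37 tested, 15 were counted as higher and none as lower, with a median difference of 0.78. Ndrg2, a protein of mature astrocytes, was 497, 624, 197 and 415 in the high-Gfap libraries, against 63.9, 87.6 and 106 in the low-Gfap libraries (2.25 ± 0.50). Agt, the angiotensin precursor made by astrocytes, was 46.5, 63.1, 12.6 and 40.6 in the high-Gfap libraries, against 4.33, 7.20 and 9.88 in the low-Gfap libraries (2.22 ± 0.63). S100b, a calcium-binding protein of glia, was 13.8, 17.0, 9.52 and 11.1 in the high-Gfap libraries, against 2.98, 4.22 and 4.72 in the low-Gfap libraries (1.55 ± 0.30). The folate enzyme gene Aldh1l1 was nearer the low-Gfap group, at 288, 274, 191 and 224 in the high-Gfap libraries, against 41.4, 132 and 169 in the low-Gfap libraries (1.15 ± 0.44). Slc1a3, a glutamate transporter that radial glia share with astrocytes, was 1252, 1271, 1239 and 1218 in the high-Gfap libraries, against 1001, 1109.8 and 1183 in the low-Gfap libraries, wholly above by only 0.19 ± 0.05. The gap junction gene Gja1 overlapped, because culture 3 with pravastatin, at 124, lay below the highest low-Gfap value of 131.

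Genes of reactive astrocytes, the state that astrocytes enter after injury, did not move as a group. Among 20 tested, 3 were counted as higher and none as lower, and the median was -0.03. Emp1, a membrane protein, was 54.7, 44.4, 21.2 and 45.7 in the high-Gfap libraries, against 3.13, 4.21 and 6.62 in the low-Gfap libraries (3.01 ± 0.37). Serpina3n, a secreted protease inhibitor, differed by 2.47 ± 0.44 and the GTPase gene Gbp2 by 1.07 ± 0.33. The filament gene Vim and the hyaluronan receptor gene Cd44 overlapped between groups, at 0.14 ± 0.06 and -0.56 ± 0.18.

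**Figure D2:**
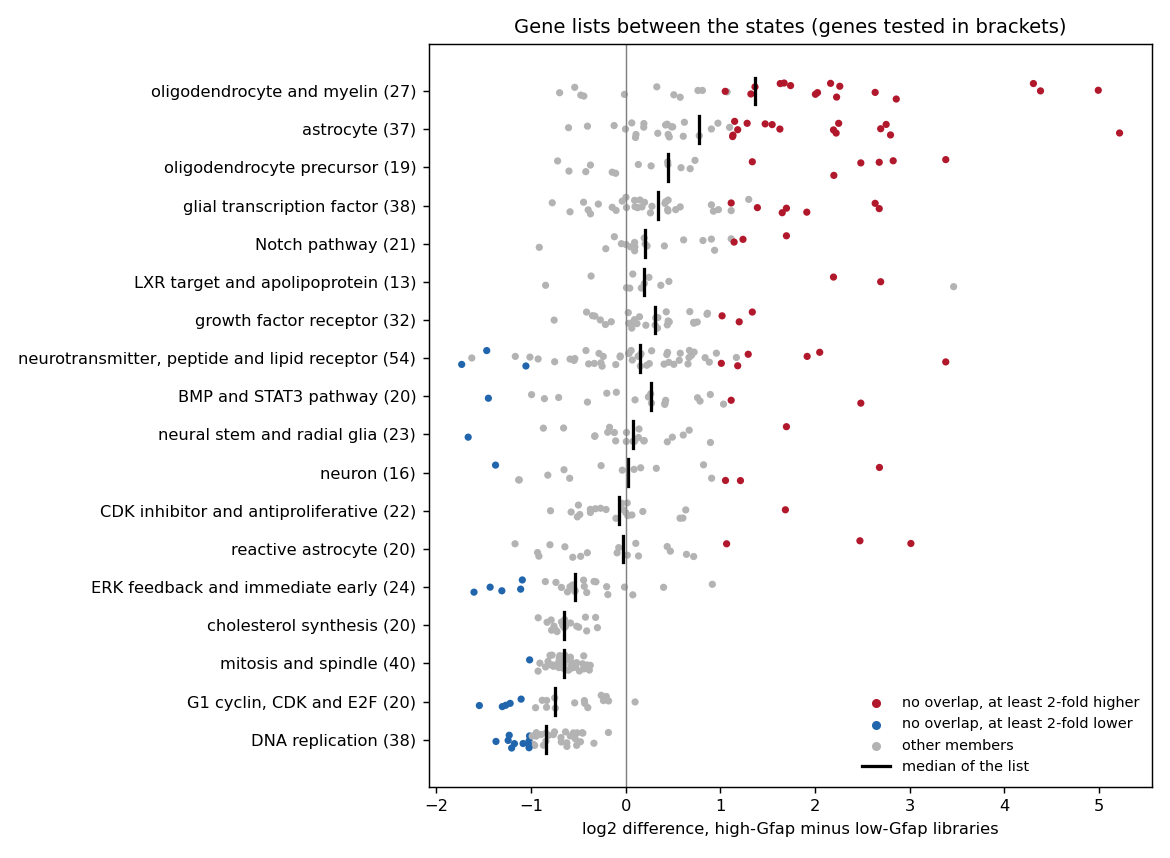
Log2 difference (high-Gfap minus low-Gfap, log2(value + 0.5)) of every tested member of 18 gene lists, 1 point per gene, with red and blue for genes that part the groups without overlap by at least 2-fold upward and downward, and a bar at the list median. The medians run from 1.37 for oligodendrocyte and myelin genes to -0.84 for DNA replication genes.

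Stem cell and neuronal genes showed members on both sides. Hes5, a Notch target that holds radial glia undifferentiated, was 353, 442, 238 and 458 in the high-Gfap libraries, against 85.2, 111 and 136 in the low-Gfap libraries (1.70 ± 0.13), the only one of the 23 stem cell genes counted as higher. Sox2, a factor of neural stem cells, was 565, 573, 438 and 506 in the high-Gfap libraries, against 257, 280.1 and 297 in the low-Gfap libraries (0.90 ± 0.14). Nes, the intermediate filament of progenitors, was wholly below at 749.7, 624, 895 and 714 in the high-Gfap libraries, against 1103, 1156 and 1234 in the low-Gfap libraries (-0.65 ± 0.12). Hmga2, a chromatin protein of young, fast-dividing stem cells, was counted as lower, at 3.90, 1.85, 5.92 and 2.46 in the high-Gfap libraries, against 8.82, 11.7 and 14.4 in the low-Gfap libraries (-1.66 ± 0.22). Of 16 neuronal genes, 3 were counted as higher and 1 as lower, with a median of 0.03. Dcx, a microtubule protein of young neurons, was 21.1, 22.5, 12.6 and 15.4 in the high-Gfap libraries, against 1.45, 2.36 and 3.50 in the low-Gfap libraries (2.68 ± 0.39). Gad1, the enzyme that makes GABA, differed by 1.21 ± 0.17 and the neuronal tubulin gene Tubb3 by 1.05 ± 0.39, while the neurofilament gene Nefl differed by -1.37 ± 0.16.

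Among 38 transcription factors of glia, 7 were counted as higher and none as lower, with a median of 0.35. Besides Sox10, Myrf and Hes5 these were Zfp488, a partner of Olig2 in oligodendrocytes (1.91 ± 0.42), Klf15 (1.65 ± 0.28), Tsc22d4 (1.39 ± 0.25) and Id2 (1.11 ± 0.43), an inhibitor of basic helix-loop-helix factors. The factors that begin gliogenesis in the embryo differed little. Sox9 was 216, 207, 135 and 138 in the high-Gfap libraries, against 135, 148 and 213 in the low-Gfap libraries, and Nfia was 147, 143, 143 and 138, against 141, 145 and 185. Rfx4, a factor of radial glia and of their cilia, lay wholly below by -0.77 ± 0.10. In the Notch list, 3 of 21 genes were counted as higher and none as lower, with a median of 0.21. These were Hes5, Heyl (1.24 ± 0.04) and Nrarp (1.15 ± 0.19), a feedback inhibitor that is itself a Notch target, and the ligand gene Jag1 lay wholly below by -0.91 ± 0.19.

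Receptor genes lay on both sides. In the list of 32 growth factor receptors, 3 were counted as higher (Pdgfra, Erbb4 and Axl) and none as lower, with a median of 0.31. Erbb4, a neuregulin receptor, was 138, 118, 96.4 and 96.9 in the high-Gfap libraries, against 34.4, 47.6 and 67.5 in the low-Gfap libraries (1.20 ± 0.25). The EGF receptor gene Egfr was 715, 619.9, 713 and 653 in the high-Gfap libraries, against 816, 831 and 924 in the low-Gfap libraries, wholly below by -0.32 ± 0.03. Of 54 receptors for transmitters, peptides and lipids, 6 were counted as higher and 3 as lower, with a median of 0.15. Ednrb, the endothelin B receptor of glia, was 1922, 2117, 883 and 1438 in the high-Gfap libraries, against 522, 654 and 698 in the low-Gfap libraries (1.29 ± 0.43). Next to it and Gpr17, the higher genes were Gabbr2 (2.05 ± 0.74) for the GABA B receptor, Grik3 (1.92 ± 0.42) for a kainate receptor, Gpr37l1 (1.18 ± 0.19) and Adcyap1r1 (1.01 ± 0.20). The lower genes included Grin2a (-1.73 ± 0.53) for an NMDA receptor subunit and the lysophosphatidic acid receptor gene Lpar6 (-1.05 ± 0.17).

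Cell cycle genes stood lower in the high-Gfap libraries. In the list of 20 G1 cyclins, cyclin-dependent kinases and E2F factors, 5 were counted as lower and none as higher, 13 lay wholly below, and the median was -0.75. Cyclin D2, from Ccnd2, was 241, 211, 514 and 326 in the high-Gfap libraries, against 620.1, 725 and 813 in the low-Gfap libraries (-1.22 ± 0.43). Cyclin E2, from Ccne2, which fires the start of S phase, was 10.2, 9.87, 14.5 and 14.2 in the high-Gfap libraries, against 23.5, 29.5 and 36.2 in the low-Gfap libraries (-1.27 ± 0.25). The E2F factors E2f1 and E2f7, which control S phase genes, differed by -1.10 ± 0.40 and -1.30 ± 0.31. The kinases that the D cyclins activate did not follow them. Cdk4 was 527, 576, 503 and 589 in the high-Gfap libraries, against 434, 511 and 576 in the low-Gfap libraries, Cdk6 overlapped with a difference of -0.20 ± 0.08, and so did Myc at -0.40 ± 0.19.

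DNA replication genes had the lowest median of the cell cycle lists, -0.84 over 38 genes. All 38 differences were negative, 27 genes lay wholly below, and 10 were counted as lower. Orc1, a subunit of the complex that marks replication origins, was 3.70, 3.98, 7.05 and 5.95 in the high-Gfap libraries, against 11.5, 14.0 and 15.1 in the low-Gfap libraries (-1.37 ± 0.34). Uhrf1, which recruits the maintenance DNA methyltransferase to new DNA, was 46.2, 44.1, 99.1 and 78.7 in the high-Gfap libraries, against 126, 149 and 182 in the low-Gfap libraries (-1.24 ± 0.48). Mcm6, a part of the replicative helicase, was 82.3, 83.4, 153 and 135 in the high-Gfap libraries, against 155, 203 and 249.6 in the low-Gfap libraries (-0.87 ± 0.40). The culture 3 libraries came close to the lowest low-Gfap library for Mcm6, and the culture 2 libraries stayed well below it. Others counted as lower were Tk1 (-1.23 ± 0.50), Cdc6 (-1.20 ± 0.47) and Rrm2 (-1.17 ± 0.51), for thymidine kinase, a helicase loader and a subunit of ribonucleotide reductase.

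The upstream windows of Orc1, Uhrf1 and Mcm6 are printed because S phase genes are known targets of E2F factors, and these windows hold the E2F core TTTNGCGC, or GCGCNAAA on the other strand. Of the 38 replication genes 32 had a RefSeq window of the same length and build, and 10 of these held the core (31.2%), against 1.57% of all 27025 genes with a window, 1.38% of 32851 windows and 2.88% of the tested genes with one. It was also in 3 of 15 windows of the G1 list (20%), 2 of 35 of the mitosis list (5.71%), 1 of 32 of the astrocyte list (3.12%) and none of 17 of the oligodendrocyte and myelin list. Capitals mark each match. In Orc1 (chr4:108579204-108579503, plus strand) the match begins 27 bases before the start, and in Uhrf1 (chr17:56304063-56304362, plus strand) 185 bases before it. Mcm6 (chr1:128359656-128359955, minus strand) has 3 matches, of which 2 overlap on opposite strands at 110 and 106 bases before the start. These matches are a description of the letters only.
Orc1: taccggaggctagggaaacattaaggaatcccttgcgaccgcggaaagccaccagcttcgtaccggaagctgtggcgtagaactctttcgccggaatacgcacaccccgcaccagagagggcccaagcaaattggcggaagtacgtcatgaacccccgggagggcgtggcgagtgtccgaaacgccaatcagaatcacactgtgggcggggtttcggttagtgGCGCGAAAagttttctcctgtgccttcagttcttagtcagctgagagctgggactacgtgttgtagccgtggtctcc
Uhrf1: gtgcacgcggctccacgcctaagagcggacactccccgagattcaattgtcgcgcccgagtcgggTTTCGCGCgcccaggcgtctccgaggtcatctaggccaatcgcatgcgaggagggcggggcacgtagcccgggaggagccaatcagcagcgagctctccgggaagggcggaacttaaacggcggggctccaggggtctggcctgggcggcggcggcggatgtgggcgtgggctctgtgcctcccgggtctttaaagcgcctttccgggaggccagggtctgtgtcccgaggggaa
Mcm6: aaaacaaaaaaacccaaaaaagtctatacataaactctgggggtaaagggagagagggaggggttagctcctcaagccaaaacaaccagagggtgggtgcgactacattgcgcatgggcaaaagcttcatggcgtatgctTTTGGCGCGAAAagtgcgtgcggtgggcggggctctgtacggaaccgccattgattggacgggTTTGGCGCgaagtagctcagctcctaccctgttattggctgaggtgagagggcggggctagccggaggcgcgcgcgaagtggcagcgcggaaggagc

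Mitotic genes had a smaller median difference than replication genes. Of 40 tested, 27 lay wholly below and none above, but only Espl1, the separase that releases sister chromatids (-1.01 ± 0.32), reached 2-fold, and the median was -0.65. Mki67, the proliferation antigen Ki-67, was 243, 273, 438 and 369.7 in the high-Gfap libraries, against 455, 553 and 652 in the low-Gfap libraries (-0.78 ± 0.33), so division genes remained expressed. Top2a, a topoisomerase of dividing cells, was 298, 338, 526 and 495 in the high-Gfap libraries, against 562, 637 and 760.0 in the low-Gfap libraries (-0.69 ± 0.34). Inhibitors of the cycle did not form a group. Of 22 tested, 1 was counted as higher and none as lower, with a median of -0.07. That gene was Cdkn1c, encoding p57, at 98.5, 88.1, 75.1 and 77.5 in the high-Gfap libraries, against 19.2, 26.0 and 36.6 in the low-Gfap libraries (1.69 ± 0.21). Cdkn1b, encoding p27, lay wholly above by 0.64 ± 0.09, and Cdkn1a, encoding p21, wholly below by -0.48 ± 0.17.

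The list of ERK feedback and immediate early genes, which growth factors such as EGF and FGF switch on, also had a negative median. Of 24 tested, 5 were counted as lower and none as higher, 12 lay wholly below, and the median was -0.54. Spry1, a Sprouty inhibitor of receptor signalling, was 60.4, 46.6, 117 and 56.9 in the high-Gfap libraries, against 177, 207 and 216 in the low-Gfap libraries (-1.60 ± 0.31). Spry4 was 80.6, 58.4, 129 and 69.8 in the high-Gfap libraries, against 182, 211 and 273 in the low-Gfap libraries (-1.43 ± 0.25). Dusp6, a phosphatase of ERK, was 61.02, 43.9, 103 and 70.0 in the high-Gfap libraries, against 132, 163 and 200.3 in the low-Gfap libraries (-1.31 ± 0.36). For all 3 genes the vehicle library was the lower one in both high-Gfap cultures. The immediate early genes Fos, Jun and Junb overlapped between the groups, at 0.40 ± 0.49, -0.01 ± 0.19 and 0.08 ± 0.33. Of 20 genes of the BMP and STAT3 pathways, which promote astrocyte fate, 2 were counted as higher, Id2 and Bmp4, and 1 as lower, the cytokine gene Lif (-1.45 ± 0.26). Bmp4 was 4.03, 4.04, 1.20 and 1.98 in the high-Gfap libraries and 0, 0.0280 and 0.152 in the low-Gfap libraries, within what 3 reads give. It passed the filter through the high-Gfap libraries alone.

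**Figure D3:**
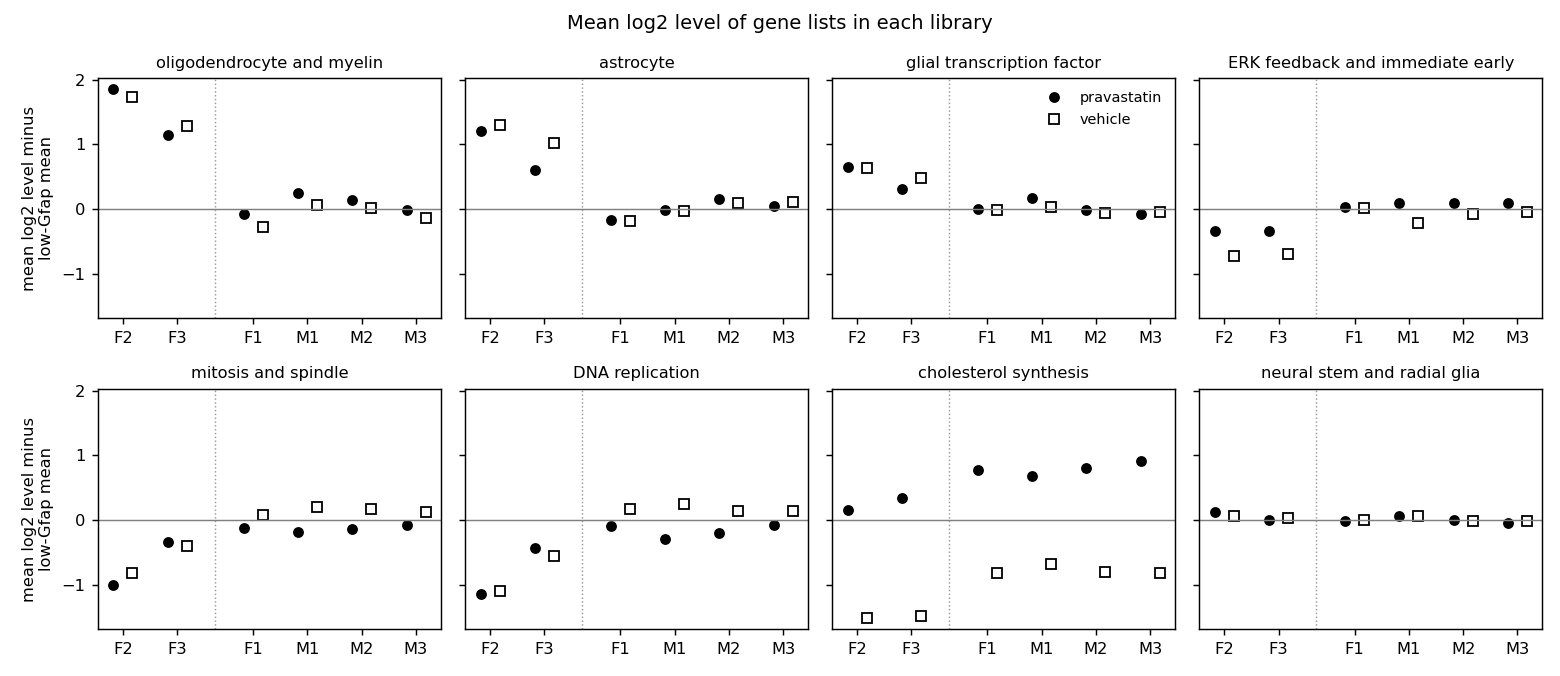
Mean log2(value + 0.5) of 8 gene lists in each library, minus the mean of the 8 low-Gfap libraries, with the high-Gfap cultures F2 and F3 at the left, filled circles for pravastatin and open squares for vehicle. Oligodendrocyte and myelin genes lie at 1.85, 1.73, 1.14 and 1.28 in the high-Gfap libraries and DNA replication genes at -1.14, -1.10, -0.44 and -0.56, while cholesterol synthesis genes part by treatment in all cultures.

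Outside the lists, the genes with the most extreme differences among those with a mean value above 5 included secreted and adhesion proteins. Angptl4, an inhibitor of lipoprotein lipase, was 57.4, 89.0, 7.39 and 34.1 in the high-Gfap libraries, against 1.07, 1.78 and 2.93 in the low-Gfap libraries (3.86 ± 1.08). H19, an imprinted noncoding RNA of fetal tissue, was 70.4, 42.8, 53.7 and 53.9 in the high-Gfap libraries, against 4.13, 6.44 and 16.3 in the low-Gfap libraries (2.89 ± 0.26). Its difference was 2.91 in culture 2 and 2.88 in culture 3, so the high level did not depend on which of the cultures was read. Nfasc, a cell adhesion protein of nodes of Ranvier and of oligodendrocytes, differed by 2.79 ± 0.62. At the other end, the integrin gene Itga4 was 5.88, 2.25, 11.05 and 6.37 in the high-Gfap libraries, against 23.3, 28.2 and 34.4 in the low-Gfap libraries (-2.24 ± 0.56). Igfbp3, which binds insulin-like growth factors, was 78.3, 62.1, 237 and 123 in the high-Gfap libraries, against 449.9, 488 and 537 in the low-Gfap libraries (-2.16 ± 0.64). Areg, an EGF receptor ligand, was 0.792, 0.923, 2.66 and 1.38 in the high-Gfap libraries, against 4.10, 6.52 and 9.73 in the low-Gfap libraries (-1.98 ± 0.44).

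Female cultures 2 and 3 were not equally far from the low-Gfap group. With the mean of the culture 2 libraries set to 100% and that of the low-Gfap libraries to 0%, culture 3 lay at a median of 58.4% with pravastatin and 83.1% with vehicle over the 433 higher genes, and at 48.9% and 79.2% over the 205 lower genes. The low-Gfap libraries lay between -11.0 and 10.0% over the higher genes, and a place near 0% follows from how the genes and the scale were chosen. Culture 2 exceeded culture 3 by the most for Angptl4 (2.12 on the log2 scale) and Gfap (2.02), followed by Enpp6. Culture 3 exceeded culture 2 by the most among the lower genes for Cpne7 (culture 2 minus culture 3, -2.14), Cd93 (-1.77) and Apln, with Ccnd1 among the leading 10. Without female culture 3 the counts of genes parting the groups were 697 higher and 559 lower, and without female culture 2 they were 326 and 139. Against female culture 1 alone, the same lists kept their direction, with medians of 1.45 for oligodendrocyte and myelin genes, 1.09 for astrocyte genes and -0.84 for DNA replication genes.

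**Figure D4:**
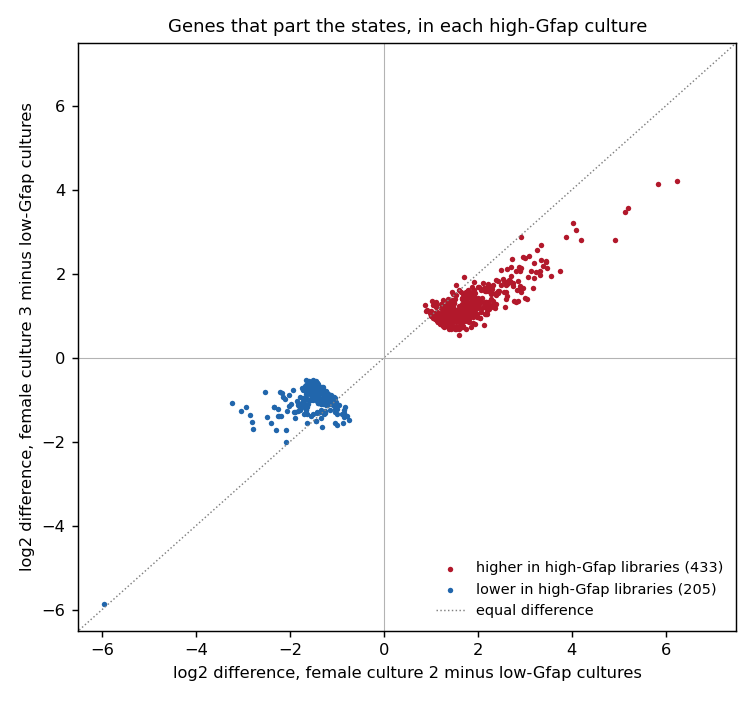
Log2 difference from the low-Gfap cultures for each of the 433 higher and 205 lower genes, female culture 2 on the horizontal and female culture 3 on the vertical axis, with the line of equality. Most points lie nearer 0 in culture 3 than in culture 2 (Gfap 6.23 in culture 2 and 4.20 in culture 3), and the gene at about -6 in both is Ddx3y on the Y chromosome.

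The same libraries also show how each group responded to pravastatin, which the choice of groups did not use. The test was limma across all 15521 genes with Benjamini-Hochberg adjustment, and the design held 2 high-Gfap and 4 low-Gfap cultures. In the high-Gfap cultures 148 genes rose (0.954%) and 7 fell (0.0451%) with pravastatin against vehicle, called where the adjusted p was under 0.05 and the fold over 1.5. The low-Gfap cultures gave 368 genes that rose (2.37%) and 26 that fell (0.168%). A culture term, which takes same-numbered libraries of a sex as pairs, was also fitted. The counts were then 270 (1.74%) and 82 (0.528%) in the high-Gfap cultures and 443 (2.85%) and 49 (0.316%) in the low-Gfap cultures. Without female culture 3 the 82 became 3 and the 270 became 149, and without female culture 2 they became 130 and 292. Leaving out 1 library at a time moved the 7 falls to between 0 and 185, with 185 where culture 2 with pravastatin was left out and 0 where culture 2 with vehicle was. Each p-value rests on a spread pooled over the cultures of both groups, from 1 embryo each. Low-Gfap libraries were 8 of the 12 behind that spread. Without the culture term the spread also holds the gap between female cultures 2 and 3. For Cd93 the standard error of the difference between responses was 0.64 without the culture term and 0.13 with it. Errors given with changes under pravastatin, and with differences between such changes, are limma standard errors from that pooled spread.

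Cholesterol synthesis genes rose with pravastatin in both groups. All 20 of 20 were called at an adjusted p under 0.05 in either group, where 1.16% of all genes rose in the high-Gfap cultures and 5.06% in the low-Gfap cultures by that rule alone, and 0.0773% and 2.18% fell. The median change was 1.74 in the high-Gfap and 1.52 in the low-Gfap cultures on the log2 scale. Hmgcs1, the synthase that precedes HMG-CoA reductase, was 3690.0, 1080.3, 4466 and 1132 in the high-Gfap libraries, against 1437, 3097 and 5440.4 (lowest, median, highest) in the low-Gfap libraries. It rose by 1.88 ± 0.14 in the high-Gfap cultures (limma, adjusted p = 2.39e-06) and by 1.57 ± 0.10 in the low-Gfap cultures (adjusted p = 1.94e-07). Its responses differed by 0.30 ± 0.17 on the log2 scale, which did not pass the test (limma interaction, adjusted p = 0.809, and 0.184 with the culture term). The level of the list differed between groups as well. Its mean log2 value relative to the low-Gfap mean was -1.52 and -1.48 in the high-Gfap vehicle libraries, against -0.83 to -0.69 in the low-Gfap vehicle libraries, and 0.16 and 0.34 with pravastatin, against 0.67 to 0.90.

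The cholesterol exporter gene Abca1, a target of the sterol-sensing LXR receptors, was 196, 656, 35.8 and 374 in the high-Gfap libraries, against 3.48, 29.0 and 70.6 in the low-Gfap libraries. It fell by 2.55 ± 0.54 in the high-Gfap cultures (limma, adjusted p = 0.0333) and by 3.42 ± 0.38 in the low-Gfap cultures (adjusted p = 5.92e-05). Apoe, another LXR target, was lower with pravastatin in all 6 cultures, by -0.70 and -1.58 in the high-Gfap cultures and by -0.51, -0.73, -0.70 and -0.90 in the low-Gfap cultures. These changes passed the limma test only with the culture term (adjusted p = 4.64e-05 in the high-Gfap and 6.41e-05 in the low-Gfap cultures, against 0.384 and 0.148 without it).

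No gene had a response that differed between the groups in limma without the culture term, where the gap between female cultures 2 and 3 counts as spread. At an adjusted p under 0.05 there were 0 genes with a larger and 0 with a smaller response in the high-Gfap cultures (0.0% each), with 930 genes at an unadjusted p under 0.05. The edgeR test on recovered reads also gave 0 and 0, with 935 at an unadjusted p under 0.05, and DESeq2 gave 0 and 13. With the culture term, limma called 205 (1.32%) and 206 (1.33%). Most of these calls were lost without female culture 3, and many were lost without female culture 2 as well. Each such fit leaves a single library per treatment in the high-Gfap group.

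DNA replication genes illustrate that contrast. With the culture term 34 of 38 fell with pravastatin in the low-Gfap cultures, where 12.9% of all genes fell, and 5 of 38 without it. None was called in the high-Gfap cultures in either fit. The median change was -0.02 in female culture 2 and 0.13 in female culture 3, against -0.26 in female culture 1 and -0.56, -0.37 and -0.24 in male cultures 1, 2 and 3. Mcm6 changed by -0.02 and 0.17 in the high-Gfap cultures, against -0.34, -0.69, -0.47 and -0.35 in the low-Gfap cultures. The difference of its responses was 0.54 (limma with the culture term, adjusted p = 0.0134, 0.434 without female culture 3, and 0.809 without the culture term). With the culture term 12 of the 38 had a significantly higher response in the high-Gfap cultures, 10 without female culture 2 and none without female culture 3. Mitotic genes fell in the low-Gfap cultures in 36 of 40 cases with the culture term and in 1 without it. None was called in the high-Gfap cultures in either fit. Their median change was -0.17 in female culture 2 and 0.04 in female culture 3. It was -0.19 in female culture 1 and -0.40, -0.32 and -0.20 in male cultures 1, 2 and 3, so female culture 2 lay near the low-Gfap cultures. With the culture term 1 of the 40 had a higher response in the high-Gfap cultures.

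Ccnd1 and 15 of 24 genes of the ERK feedback and immediate early list rose with pravastatin in the high-Gfap cultures in the fit with the culture term. The change in Ccnd1 was 0.85 and 1.04 in the high-Gfap cultures, against -0.12, 0.03, 0.01 and 0.11 in the low-Gfap cultures. The responses differed by 0.94 on the log2 scale (limma with the culture term, adjusted p = 0.000424, 0.0129 without female culture 3, and 0.803 without the culture term). Dusp6 changed by 0.47 and 0.55 in the high-Gfap cultures, against -0.31, -0.31, -0.18 and -0.16 in the low-Gfap cultures, a difference of 0.75 (adjusted p = 0.00114 with the culture term, 0.0365 without female culture 3, and 0.803 without the culture term, limma). For Spry1 the changes were 0.37 and 1.04 in the high-Gfap cultures, against -0.04, -0.10, 0.12 and 0.04 in the low-Gfap cultures, so the size of its response rested on culture 3. With the culture term 15 of the 24 genes of the list rose in the high-Gfap cultures, where 3.85% of all genes rose, and 9 of 24 rose in the low-Gfap cultures, where 13.2% did. Without the culture term 0 of 24 were called in the high-Gfap cultures and 1 of 24 in the low-Gfap cultures. The 15 became 6 without female culture 2 and 3 without female culture 3.

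Part of the astrocyte list fell with pravastatin, and its calls in the high-Gfap cultures depended on the culture term and on female culture 3. With the culture term 11 of 37 fell in the high-Gfap cultures, where 1.64% of all genes fell, and none without that term. In the low-Gfap cultures 7 of 37 fell and 7 rose with the culture term, where 12.9% of all genes fell and 13.2% rose, and 2 fell and 1 rose without it. The 11 were Aqp4, Gja1, Glul, Fgfr3, Apoe, Ndrg2, Cst3, Mt3, Mfge8, Itih3 and Agt, and all 11 had negative changes in both high-Gfap cultures. Without female culture 3 these calls were lost for all but Apoe, and without female culture 2 the genes called were not all the same. Gfap, not among the 11, changed by 0.31 in female culture 2 and -1.36 in female culture 3. Its changes in the low-Gfap cultures were 0.49, 0.44, 0.11 and -0.01. Agt changed by -0.44 in female culture 2 and -1.65 in female culture 3, against -0.68, -0.62, -0.35 and -0.38 in the low-Gfap cultures. Mt3, a metallothionein of the brain, changed by -0.45 in female culture 2 and -0.37 in female culture 3, against -0.16, -0.56, -0.37 and -0.38 in the low-Gfap cultures, so these genes were lower with pravastatin in all 6 cultures. Ndrg2 changed by -0.33 in female culture 2 and -1.07 in female culture 3, against 0.10, 0.03, -0.06 and -0.39 in the low-Gfap cultures. Aqp4 changed by -0.08 in female culture 2 and -0.93 in female culture 3, against 0.26, 0.01, 0.09 and -0.04 in the low-Gfap cultures. Hes5 of the Notch pathway fell by 0.43 ± 0.10 in the low-Gfap cultures (limma, adjusted p = 0.0237) and changed by -0.63 ± 0.14 in the high-Gfap cultures, which passed only with the culture term (adjusted p = 0.00285, against 0.0559 without it and 0.484 without female culture 3). Mbp changed by 0.26 and -0.23 in the high-Gfap cultures and passed neither fit (limma, adjusted p = 0.998 and, with the culture term, 0.987).

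**Figure D5:**
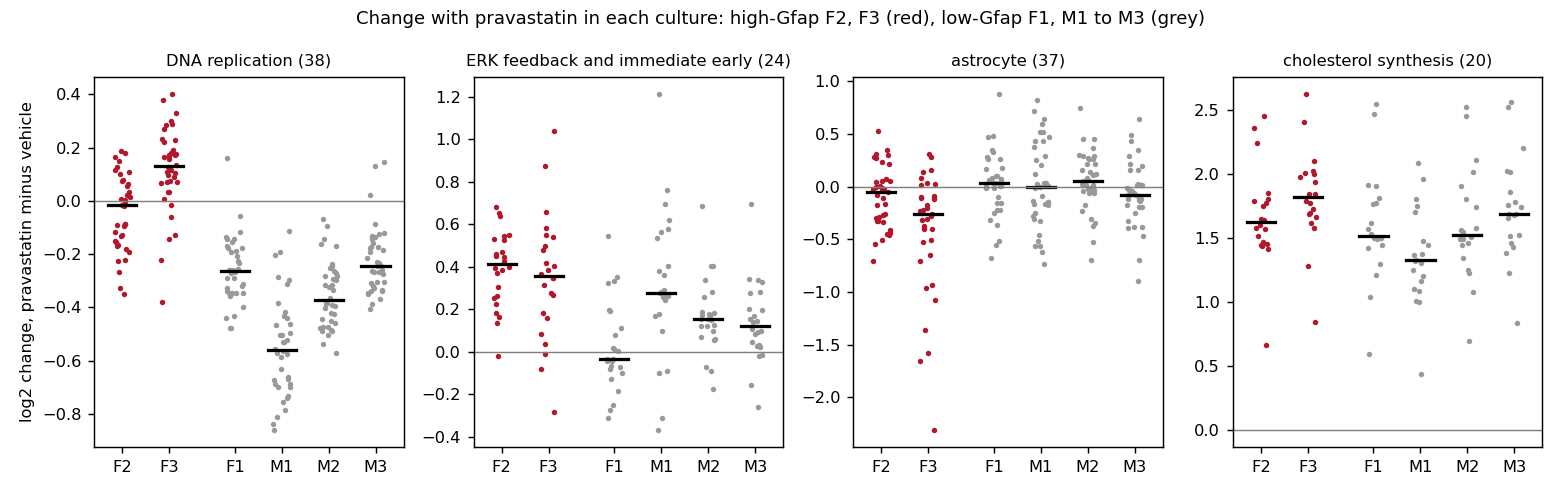
Log2 change with pravastatin (pravastatin minus vehicle) of every tested gene of 4 lists in each culture, high-Gfap cultures F2 and F3 left of the low-Gfap cultures F1, M1, M2 and M3, 1 point per gene and a bar at the median. Cholesterol synthesis genes have medians of 1.33 to 1.82 in every culture, and DNA replication genes have medians of -0.02 and 0.13 in F2 and F3, against -0.56 to -0.24 in the other 4.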

How the data were processed

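Per the labels and the study's methods, total RNA was made into stranded libraries, technical replicates were merged, and reads were aligned to GRCm38 with TopHat2 2.1.1, assembled with Cufflinks and counted with HTSeq at default parameters. The deposited values are a signal, whole reads times 1 factor for each library, with 100.0% of values within 0.01 of a whole read once the authors' factor was removed. The authors' fold changes and p-values in the same tables were not used. Vehicle libraries were deposited with another study as well.

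Of 16106 genes, 15521 with a value above 1 in at least 4 libraries were kept, and 21 symbols that had turned into dates were restored. Libraries with Gfap above 50 were compared with the rest on log2(value + 0.5) with treatment as a covariate, as a description. Pravastatin was tested with limma 3.58.1 (R 4.3.3) on 4 group means over 12 libraries, because the files held normalised values and not the raw counts that the edgeR test planned for counts needs. The edgeR 4.0.16 quasi-likelihood test and DESeq2 1.42.0 on the recovered reads were alternatives (edgeR called 150 genes higher and 6 lower in the high-Gfap cultures, and 379 and 35 in the low-Gfap cultures), as were a culture term, other pseudocounts, filters and scalings, and libraries left out. The scripts were tested on simulated data.

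Same-numbered libraries of a sex shared their deviations from the means of their sex and treatment, strongly only in 2 female cultures. The correlations were r = 0.869, 0.865 and 0.425 for female cultures 1, 2 and 3, and 0.179, 0.166 and 0.302 for the male cultures. The replicate numbers were taken to pair the libraries. The female correlations also carry the difference between the groups, since culture 1 was low-Gfap and cultures 2 and 3 were high-Gfap. For female culture 3 that pairing was weak, since the vehicle library of culture 3 correlated about as well with culture 2 with pravastatin (0.429).

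The groups, the genes and the gene lists were chosen with earlier results of these data known. Genes named in the text are the 5 markers, list members, the 15 genes with the largest and the 15 with the smallest difference among those with no overlap and a mean value above 5, the 10 with the largest gap between cultures 2 and 3 in each direction, the 10 most like Gfap and at most 10 interaction genes by p, and some of these genes are not reported here. Sequences are RefSeq windows of GRCm38.p6. The limit of 3 reads for a count of 0 covers counting error only, and p-values rest on a spread between cultures pooled over both groups.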

Additional observations from a re-analysis of the deposited data

Results flagged for a closer look

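One library lay far from the others of its group. Over the glial transcription factors, male culture 1 with pravastatin had a mean log2 value of 5.813, against 5.572 to 5.669 in the other low-Gfap libraries, a gap of 0.596 of the group's range. It was the 1 found among 64 groups screened, and chance gives about 1 in 20.

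The response to pravastatin differed between the high-Gfap and the low-Gfap cultures for these genes in limma with the culture term (Benjamini-Hochberg adjusted p), and for none of them in limma without it. The difference was 0.939 for Ccnd1 (adjusted p = 0.000424), 1.208 for Cd93 (0.000786), 0.7482 for Dusp6 (0.00114) and 1.375 for Angpt2 (0.00114), an angiopoietin. Of these, Cd93 changed by 0.76 and 1.35 in the high-Gfap cultures, against -0.12, -0.30, -0.05 and -0.14 in the low-Gfap cultures. The difference was -0.8346 for Crmp1 (0.00147), a collapsin response protein with changes of 0.73 and 0.96 in the high-Gfap cultures, against 1.48 to 1.84 in the low-Gfap cultures. These 5 genes were also called without female culture 3 (adjusted p = 0.0129, 0.0129, 0.0365, 0.0142 and 0.0129, in the order given).

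The other 5 were called with female culture 3 and not without it. Their differences were -0.699 for Rassf2 (limma with the culture term, adjusted p = 0.00147, and 0.0839 without female culture 3), -1.043 for Sncaip (0.00147 and 0.0586) and -0.7413 for Emp2 (0.00164 and 0.0608). For 2610203C20Rik the difference was -0.7988 (0.00187 and 0.0895), and for Synpr, a synaptic vesicle protein, it was -1.197 (0.00237 and 0.0952). Synpr changed by -0.17 and -0.38 in the high-Gfap cultures, against 0.87, 0.90, 0.99 and 0.93 in the low-Gfap cultures.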

How the results depend on the processing

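The medians of the oligodendrocyte and myelin genes (1.10 to 1.71), astrocyte genes (0.602 to 1.09) and DNA replication genes (-1.18 to -0.505) kept their sign under every alternative run. Those near 0 changed sign under some, for the Hedgehog and Wnt, adhesion and matrix, interferon, mural, neurogenic, neuron and reactive astrocyte lists. The farthest that rescaling put the median of all genes was -0.033. The counts of genes parting the groups, 433 higher and 205 lower, were 668 and 422 in vehicle libraries alone. In the female libraries alone 314 were lower. A lack of overlap is easier to reach with fewer libraries, so such counts are not directly comparable. With libraries or cultures left out the counts ranged from 326 to 697 higher and 139 to 559 lower.

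The replicate block (the culture term that pairs libraries) changed the treatment counts as given in the report: 270 and 82 in the high-Gfap cultures, 49 lower in the low-Gfap cultures, and 205 and 206 for the interaction. In edgeR with the block these were 269, 84, 81, 212 and 191. With no fold threshold the high-Gfap cultures had 12 lower without the block, and 597 higher and 254 lower with it. The low-Gfap cultures had 785 higher and 339 lower without the block, and 2055 higher and 1998 lower with it. Rescaling to equal totals gave 51 lower in the low-Gfap cultures. DESeq2 gave 13 for the interaction, lower.

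With 1 library left out, genes changed in the high-Gfap cultures ranged from 99 to 324 higher and 0 to 185 lower, with the highest of both where culture 2 with pravastatin was left out. The low-Gfap cultures ranged from 300 to 398 higher and 9 to 35 lower, with 9 where male culture 3 with vehicle was left out and 15 without female culture 1 with pravastatin or either library of male culture 1. The interaction ranged from 0 to 24 and 0 to 59, again highest without culture 2 with pravastatin. With the block and without female culture 2 or 3 the values were 292 and 149 higher and 130 and 3 lower in the high-Gfap cultures, 50 and 50 lower in the low-Gfap cultures, and 192 and 7 higher and 195 and 6 lower for the interaction. Without culture 3 the interaction reversed for Gfap (0.0559), Mbp (0.0369) and Apoe (0.0074), none of them called. The cause of these shifts was not tested. The block without 1 culture and with no fold threshold was chosen after seeing the data. The 3 reads that a count of 0 allows correspond to values of 0.157 to 0.228, and values under these cannot be told from 0.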

Other observations

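Several lists did not follow the glial pattern. Of 12 genes of telencephalic and other regional identity, none parted the groups by 2-fold, and the cortical factor Emx2 was 20.6, 19.6, 19.6 and 16.7 in the high-Gfap libraries (culture 2 with pravastatin and vehicle, then culture 3 with pravastatin and vehicle), against 14.9, 19.0 and 24.8 (lowest, median, highest) in the low-Gfap libraries. Among 12 neurogenic transcription factors 1 was counted as higher, Neurog2, at 5.28, 4.33, 1.53 and 3.07 in the high-Gfap libraries, against 0.575, 0.772 and 0.988 in the low-Gfap libraries. Neurog2 passed the filter through the high-Gfap libraries alone. Sox4, a factor of young neurons and glia, lay wholly above by 0.71 ± 0.14 and Sox11 wholly below by -0.34 ± 0.02. Of 22 Hedgehog and Wnt genes 1 was counted as higher, Dkk3, at 15.7, 23.1, 4.79 and 10.9 in the high-Gfap libraries, against 0.549, 1.73 and 2.37 in the low-Gfap libraries. None of 17 interferon and antigen presentation genes reached 2-fold without overlap.

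Ttr, the transthyretin gene and a marker of choroid plexus, was 16.9, 4.50, 1.53 and 5.89 in the high-Gfap libraries, against 0, 0 and 0.0592 in the low-Gfap libraries. Ttr too passed the filter through the high-Gfap libraries alone. Of the 18 genes listed for cilia, ependyma and choroid plexus 9 were tested, and S100a6 was the other one counted as higher (2.02 ± 0.32). Foxj1, the regulator of motile cilia, was 22.3, 30.8, 21.5 and 33.1 in the high-Gfap libraries, against 18.1, 21.2 and 24.9 in the low-Gfap libraries, so the groups overlapped. Of 27 adhesion and matrix genes 2 were counted as higher, Tnr and Sparcl1, while Tnc, a matrix protein of the stem cell niche, lay wholly below by -0.87 ± 0.18.

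The 10 genes whose log2 values over the 12 libraries were most like those of Gfap had Pearson correlations of 0.986 to 0.992, a description over libraries that fall into the same groups. They were led by Scarb2 (0.992) and also included Psap and Pld3, all of lysosomes, Slc14a1 (0.990), a urea transporter of astrocytes, and Jph3 (0.991). Psap was 946, 999, 789 and 905 in the high-Gfap libraries, against 625, 649 and 669 in the low-Gfap libraries. Scarb2 was 490.4, 494, 369.6 and 459.7 in the high-Gfap libraries, against 248, 275 and 285 in the low-Gfap libraries.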
